A study of Mus musculus with 8 samples.

Results

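Strong cDC1-only peaks inside genes are sites bound by DC-SCRIPT, the zinc finger protein encoded by Zfp366, in type 1 conventional dendritic cells (cDC1) of mouse spleen. They were chosen by 3 conditions on the deposited peak lists: at least 25 normalised tags in cDC1, no centre of a cDC2 peak within 1 kb, and a centre inside a protein-coding gene of the GRCm38 RefSeq table, over 1 kb from any gene end. Of 31473 cDC1 peaks, 8201 had 25 normalised tags or more, 6824 of these had no cDC2 peak within 1 kb, 3806 of these lay inside a gene, and 2710 were also over 1 kb from a gene end. The 2710 peaks were 8.61% of all cDC1 peaks (exact 95% interval 8.30% to 8.93%) and 33.0% of the cDC1 peaks at 25 tags or more (32.0% to 34.1%). Tag height, the absence of a cDC2 peak and the place in a gene chose the peaks, so these are given as description only.

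DC-SCRIPT was profiled by CUT&Tag, in which an antibody brings a transposase to a chromatin protein so that nearby DNA is cut, tagged and sequenced. Splenic cDC1 and cDC2, the other conventional subset, came from female C57BL/6 mice that were zfp366+/+ (wild type) or zfp366-/- (knockout), and each library was a pool of mice. Of 8 libraries, 3 came from wild-type cDC1, 2 from knockout cDC1, 1 from wild-type cDC2 and 2 from knockout cDC2. The sources used here do not give the age of the mice, the deleted part of the gene or the cells in which it was lost. Each subset had 1 peak list, called on 1 set of wild-type tags against 1 set of knockout tags, so no value per library could be given and no spread between mice was measured.

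DC-SCRIPT is expressed by conventional dendritic cells and is known as a nuclear protein that binds corepressors and is needed for normal cDC1 function. cDC1 take up dying cells, cross-present their antigens to CD8 T cells and make interleukin-12, whereas cDC2 mainly prime CD4 T cells. Sites inside genes, away from gene ends, include intronic enhancers, which can act on the gene around them or on a neighbour, and starts of shorter transcripts.

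A few of these sites lay on annotated transcript starts inside the gene, and for those the RefSeq sequence of build GRCm38.p6 was at hand. Of the 2710 peaks, 147 (5.42%, exact 95% interval 4.60% to 6.34%) overlapped by at least 50 bp a window from 250 bases before to 50 bases after an annotated start, and for 133 of the 147 the start belonged to the gene that held the peak. The sequences below are the parts of peaks that lay upstream of such a start of their own gene, for parts of 80 bases or more. They are the 4 with the most tags and the 5 with the most tags among the 19 that held ACTTCC or its reverse complement. These letters are the core of an ETS site with flanking bases. Most parts of 80 bases or more did not hold this match. Its frequency among the printed sequences was therefore set by the choice and does not describe the peaks. Capitals mark that match, and each run is printed 5' to 3' on the strand of the gene.
Per1, chr11:69098699-69098841, plus strand: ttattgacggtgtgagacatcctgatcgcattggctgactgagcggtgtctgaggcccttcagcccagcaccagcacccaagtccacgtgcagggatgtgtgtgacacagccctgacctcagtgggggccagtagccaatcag
Sin3a, chr9:57076126-57076262, plus strand: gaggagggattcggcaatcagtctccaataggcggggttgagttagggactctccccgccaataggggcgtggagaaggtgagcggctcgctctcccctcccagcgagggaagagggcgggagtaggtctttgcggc
Cd47, chr16:49855404-49855537, plus strand: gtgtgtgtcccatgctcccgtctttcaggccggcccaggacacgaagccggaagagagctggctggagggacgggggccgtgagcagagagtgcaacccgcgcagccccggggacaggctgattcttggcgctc
Tnrc18, chr5:142817792-142817912, minus strand: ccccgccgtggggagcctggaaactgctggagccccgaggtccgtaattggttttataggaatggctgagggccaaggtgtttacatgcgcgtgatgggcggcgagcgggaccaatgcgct
Maff, chr15:79348152-79348320, plus strand: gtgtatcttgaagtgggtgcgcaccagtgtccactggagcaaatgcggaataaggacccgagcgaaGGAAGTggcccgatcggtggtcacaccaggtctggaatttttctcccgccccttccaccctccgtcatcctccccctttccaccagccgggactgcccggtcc
Gpr132, chr12:112860939-112861129, minus strand: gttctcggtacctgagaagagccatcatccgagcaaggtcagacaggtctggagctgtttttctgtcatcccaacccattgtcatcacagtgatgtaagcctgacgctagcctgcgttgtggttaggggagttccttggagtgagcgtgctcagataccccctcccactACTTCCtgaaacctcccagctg
Tarbp2, chr15:102517948-102518138, plus strand: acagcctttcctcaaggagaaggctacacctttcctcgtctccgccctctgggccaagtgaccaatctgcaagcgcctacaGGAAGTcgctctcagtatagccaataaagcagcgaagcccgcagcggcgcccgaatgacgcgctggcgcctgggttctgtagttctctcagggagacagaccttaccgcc
Ampd3, chr7:110773386-110773572, plus strand: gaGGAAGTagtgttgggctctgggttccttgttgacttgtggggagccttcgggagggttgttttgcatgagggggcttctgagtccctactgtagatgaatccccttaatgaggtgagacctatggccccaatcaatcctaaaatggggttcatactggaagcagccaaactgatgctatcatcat
Sgo1, chr17:53689461-53689565, minus strand: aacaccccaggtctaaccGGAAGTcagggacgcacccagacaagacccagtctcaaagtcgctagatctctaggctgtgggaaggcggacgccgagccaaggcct

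Per1, a repressor of the circadian clock, had 106.4 normalised tags at this start against 13.5 knockout tags, a 9.57-fold excess over knockout at equal depth (exact 95% interval of the tag ratio 5.44 to 17.1). Sin3a, the scaffold of a histone deacetylase corepressor complex, had 104.7 normalised tags and a fold of 7.72 (4.61 to 13.0). Cd47, the cell-surface signal that restrains phagocytosis, had 77.1 normalised tags and a fold of 17.0 (7.08 to 42.9). None of these 3 sequences, nor that of Tnrc18, held the flanked ETS match. Among those that did, Maff, a small MAF transcription factor, had 74.2 normalised tags, and Gpr132, a G protein-coupled receptor of leukocytes, had 72.3. Tarbp2, a partner of Dicer, had 65.7 normalised tags, Ampd3, an AMP deaminase, had 49.5, and Sgo1, a protector of centromere cohesion, had 39. Their folds ran from 4.98 at Sgo1, with 9.5 knockout tags, to 20 at Ampd3, with 3. As the printed sequences were chosen by tags, this range does not describe all sequences with the match.

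Over all 147 windows the flanked ETS letters, ACTTCC on either strand, were present in 37.4% (exact 95% interval 29.6% to 45.8%). The share was 34.7% of the 1163 windows under strong cDC1-only peaks at gene ends and 23.8% of all 32851 start windows of the same 300 bases. The PU.1-type letters GAGGAAG, which share GGAAG with the flanked ETS letters, were present in 21.8% (15.4% to 29.3%), against 18.1% at gene ends and 13.6% of all windows. The AP-1 letters TGANTCA were present in 5.44% (2.38% to 10.4%), against 7.81% of all windows, and the NF-kB letters GGGNNTTCC in 8.84% (4.79% to 14.6%), against 5.82%. The windows differed in base composition: 70.7% of the 147 had a CpG ratio, observed over expected, of 0.6 or more, against 84.3% at gene ends and 35.8% of all windows. Among all windows with that CpG ratio, 25.6% held the flanked ETS letters, 12.0% the PU.1-type, 3.46% the AP-1 and 7.17% the NF-kB letters. The AP-1 share of the 147 was thus below that of all windows and above that of windows with this CpG ratio, and its interval held both. In the 26 windows under peaks of at least 50 normalised tags, the flanked ETS share was 26.9% (11.6% to 47.8%) and the NF-kB share 15.4% (4.36% to 34.9%). These shares are of windows of 300 bases, which need overlap a peak by only 50 bp, so a match may lie outside the peak. A match describes the letters only, and these windows cover few of the peaks.

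The peaks were high over knockout across their whole range. The wild-type signal had a median of 34.4 normalised tags, with quartiles of 28.8 and 45 and a highest value of 238.2, where normalised tags are tags scaled to a total of 10000000. In these cDC1 libraries the median peak held 122.0 wild-type tags before scaling. The knockout signal had a median of 4 tags, or 3.29 after the same scaling, and the highest was 32 tags. At 157 peaks (5.79%) the knockout value was the lowest listed, 0.5 tag. No peak was listed at 0, so this value may also stand for no tag, and a count of 0 would allow up to 2.47 normalised tags there. The median fold over knockout was 11.8 (quartiles 7.80 and 20.3), 73.0% of the peaks had a fold of at least 8, and 161 had one under 5. Since the caller required a 4-fold excess over knockout, the lower end of this range was set by the list.

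The height fell off quickly above the minimum of 25. Of the 2710 peaks, 1840 had at least 30 normalised tags, 490 at least 50, 28 at least 100, and 3 at least 150. Just inside the limit, at 25 normalised tags, stood peaks in Eif3h, a translation initiation factor, Itga2, an integrin subunit, and Wasf2, an actin nucleation factor. Just outside it, at 24.8, stood peaks in Hnrnpc, Rftn1 and Tnfaip8.

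**Figure D1:**
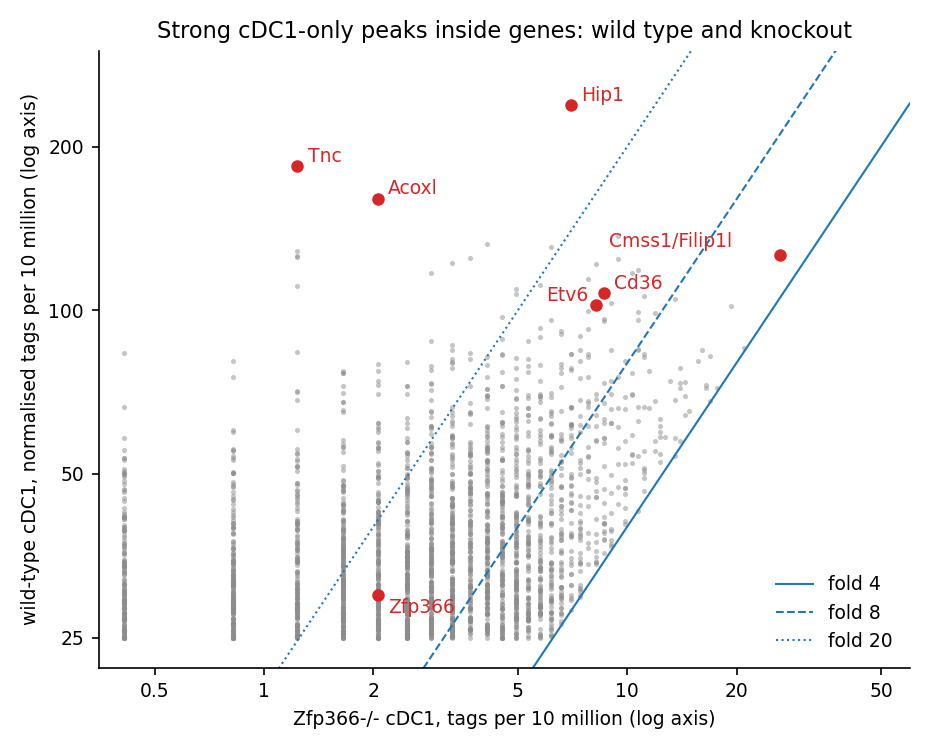
Wild-type against knockout signal of the 2710 peaks, each a grey point, both in tags scaled to a total of 10000000, on log axes; lines mark folds of 4, 8 and 20, and red points name the highest peak of 7 genes. Tnc and Acoxl stand at low knockout signal, and the peak shared by Cmss1 and Filip1l stands farthest right, with 126.2 wild-type and 26.3 knockout tags on that scale.

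Compared with other peaks, knockout signal was lower inside genes than at gene ends. Strong cDC1-only peaks within 1 kb of a gene end had a median of 6 knockout tags and a median fold of 8, with similar wild-type signal (36.2 normalised tags). The peaks inside genes that lay on an annotated start resembled these: the 147 had a median of 6 knockout tags and a fold of 7.68, against 3.5 tags and 12.2 for the other 2563. Strong cDC1-only peaks outside genes had a median fold of 12.7, close to that of the peaks inside genes, and strong peaks inside genes that were shared with cDC2 had a median fold of 16.2. A fold of at least 8 was found at 73.0% of the cDC1-only peaks inside genes (exact 95% interval 71.3% to 74.7%), 50.1% of those at gene ends (47.9% to 52.2%) and 86.3% of the shared ones (83.2% to 89.1%). These intervals do not overlap, but they cover counting error only and no test over mice was possible. Because the same tags entered the peak call and the height rule, the differences are descriptive.

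Whether a peak was cDC1-only depended on a much shallower cDC2 list. Wild-type depth was 35.5 M tags for cDC1 but 4.77 M for cDC2, so the median peak of 34.4 normalised tags would correspond to 16.4 tags in cDC2, and the lowest cDC2 peak listed had 6.02 tags (12.6 normalised). Among the 3259 strong cDC1 peaks inside genes and away from gene ends, the share with a cDC2 peak within 1 kb was 10.95% at 25 to 30 normalised tags (exact 95% interval 9.06% to 13.1%), 20.1% at 40 to 60 and 41.7% at 100 or more (27.6% to 56.8%). Where a peak was shared, the cDC2 signal was the lower of the pair at 446 of 549 peaks, with a median of 40.6 normalised tags in cDC1 against 29.3. These peaks had to reach 25 normalised tags in cDC1 and to lie near a listed cDC2 peak, for which the lowest value was 12.6. The part of these unequal limits in the difference was not tested. The part of cDC2 depth in the cDC1-only calls was not tested, and binding in cDC2 below its list's limit cannot be told apart from none.

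Distances to cDC2 peaks are limited by the rule, which removed every peak with a cDC2 centre within 1 kb, and by the short cDC2 list of 2776 peaks. They were not computed for other cDC1 peaks and are given as description only. The median distance to the nearest cDC2 centre was 107.9 kb, and 51.9% of the peaks were over 100 kb from one. Only 303 were within 10 kb and 49 within 2 kb. The gene around the peak held no cDC2 peak for 1949 of 2710 (71.9%, exact 95% interval 70.2% to 73.6%). Only 5.33% of all protein-coding genes held a cDC2 peak, so having none is common to most genes. Of the genes that held such a peak, 386 (20.9%, 19.1% to 22.8%) also held a cDC2 peak, against 10.5% (9.77% to 11.3%) of 6324 genes that held other cDC1 peaks only. The genes of these groups also differed in length, as given next, and the part of length in this difference was not tested.

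Of 21900 protein-coding genes, 1848 (8.44%) held at least 1 strong cDC1-only peak inside. For comparison, 37.3% held a cDC1 peak of any height in the gene body, ends included, and 5.33% a cDC2 peak. Of the 1848, 1306 held 1 such peak, 341 held 2 and 201 held 3 or more, and 40 peaks lay inside more than 1 gene. The genes were long, with a median length of 61.0 kb against 17.1 kb for all protein-coding genes and 30.4 kb for genes with other cDC1 peaks only. The share of genes with such a peak went from 0.456% of genes up to 5 kb to 26.3% of genes of 200 to 500 kb (exact 95% interval 23.2% to 29.6%). Per megabase of gene body the order was different, with 4.59 peaks at 10 to 20 kb, 3.26 at 100 to 200 kb and 0.492 above 500 kb. Short genes have few bases over 1 kb from an end, so their values are limited by the rule.

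**Figure D2:**
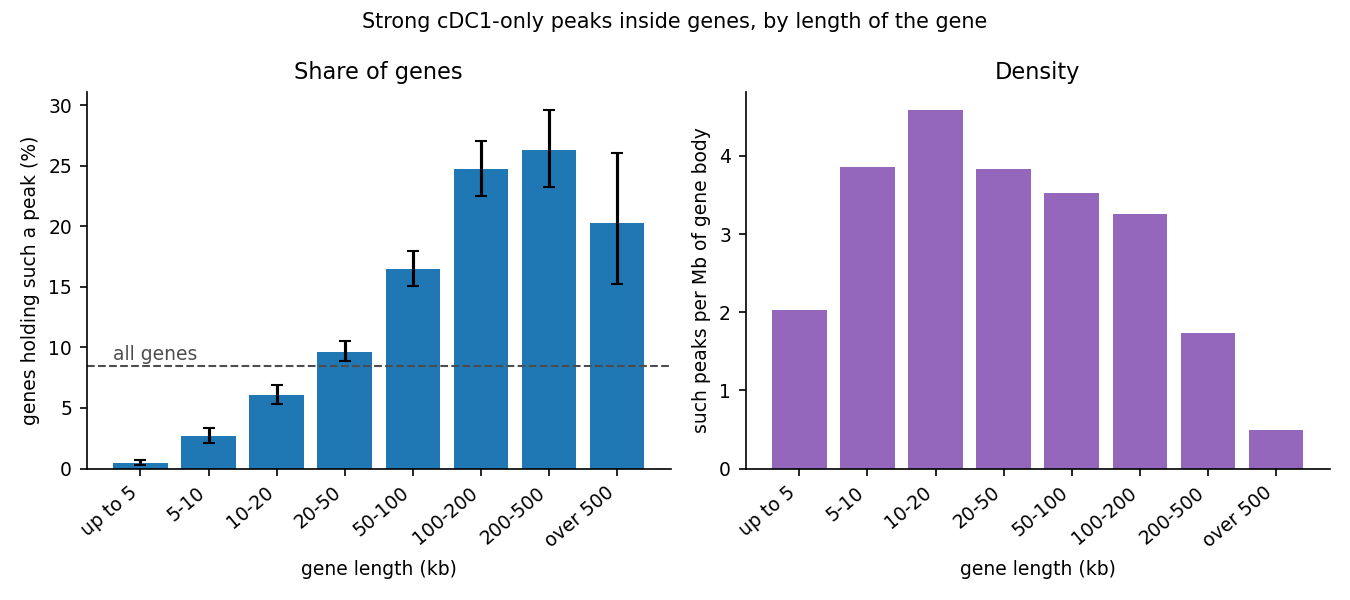
Left, share of protein-coding genes holding a strong cDC1-only peak inside, by gene length, with exact 95% intervals and the share of all genes as a dashed line; right, such peaks per megabase of gene body. The share is highest at 200 to 500 kb (26.3%), while the density is highest at 10 to 20 kb (4.59 per Mb).

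The peaks were more frequent towards the 5' end of genes. The strand was known for 1482 of the 1848 genes, which gave 2213 pairs of a peak and a gene. Of these, 62.7% lay nearer the 5' than the 3' end of the gene (exact 95% interval 60.7% to 64.7%), although the bases open to the rule in those genes were split evenly (50.03% in that part). The share was 57.0% (55.9% to 58.1%) for weaker cDC1-only peaks and 59.5% (54.8% to 64.2%) for strong shared peaks. With the gene cut into 10 equal parts, the first and the second part held 14.9% and 15% of the peaks and the last 5.65%. Of the peaks, 8.09% were within 300 bp of an annotated start of the gene (6.99% to 9.30%), against 4.19% of the weaker peaks and 0.761% of the open bases. Within 1 kb of one lay 10.7% of the peaks (9.45% to 12.1%). The part of such starts in the excess towards the 5' end was not tested. The median distance from the 5' end of the gene was 23.3 kb.

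**Figure D3:**
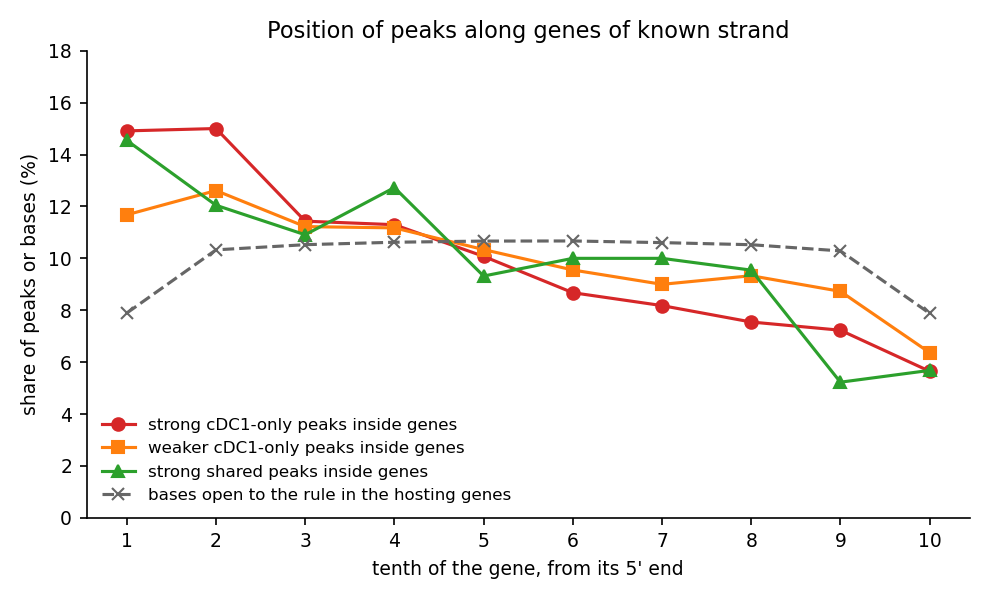
Share of peaks in each of 10 equal parts of the gene from its 5' end, for strong cDC1-only, weaker cDC1-only and strong shared peaks inside genes of known strand, with the share of gene bases that the rule left open as a dashed line. The strong cDC1-only peaks go from 15% in the second part to 5.65% in the last.

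The 15 genes with the highest peaks had very different functions. Hip1, which links clathrin coats to actin, had 1 such peak at chr5:135537419-135537609, 7.81 kb from the 5' end of the gene, with 238.2 normalised tags, 8.5 knockout tags and a fold of 34.1 (exact 95% interval 16.9 to 70.7). Tnc, the matrix glycoprotein tenascin-C, had 184.4 normalised tags and 1.5 knockout tags, a fold of 150.3 with a wide interval (30.9 to 928) because the knockout count was so low. Acoxl, which encodes an acyl-CoA oxidase-like protein, had 160.4 normalised tags and a fold of 77.9 (22.1 to 316). These 3 were the only peaks at 150 or more.

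Further high peaks lay in genes of enzymes. Dapk1, a kinase of cell death and autophagy, had 132.4 normalised tags and a fold of 32.5 (13.7 to 99.7). Ptpn3, a tyrosine phosphatase, had 128.3 normalised tags and a fold of 103.8 (21.5 to 646). Plbd1, a lysosomal phospholipase B-like protein, had 125.6 normalised tags and a fold of 101.7 (21.0 to 632). Ctse, the endosomal aspartic protease cathepsin E, had 124.5 normalised tags and a fold of 33.5 (12.9 to 93.8). The lower limits of all 4 were above the median fold of 11.8. Ctse lay 1.35 kb from a cDC2 peak and Plbd1 3.45 kb, so they were cDC1-only by a short distance.

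Cass4, an adhesion scaffold of the Cas family, came closest to a cDC2 peak. Its peak of 130.8 normalised tags was 1.03 kb from a cDC2 centre, just outside the 1 kb limit, with a fold of 21.2 (10.01 to 46.3). Nuclear proteins were also among the highest. Rb1, the retinoblastoma cell cycle repressor, had 125.3 normalised tags and a fold of 102.4 (21.0 to 631), in a gene with no cDC2 peak. Polr3gl, a subunit of RNA polymerase III, had 124.3 normalised tags and a fold of 13.1 (7.14 to 24.6). Baz2b, a bromodomain protein, had 121.8 normalised tags and a fold of 14.8 (7.98 to 31.1), and 5 further such peaks. A cDC2 peak lay inside Cass4 and Baz2b, and none inside Polr3gl.

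The remaining genes of the 15 included an overlapping pair. Ccdc12 held 4 such peaks, the highest with 137 normalised tags and a fold of 14.5 (7.88 to 27.1). Pebp4, of the phosphatidylethanolamine-binding family, had 122.1 normalised tags, 8.77 kb from a cDC2 peak. Cmss1 and Filip1l overlap and share 1 peak of 126.2 normalised tags. That peak had 32 knockout tags, the most of all 2710, and a fold of only 4.79 (3.35 to 7.10). Its focus ratio, the share of tags near the peak centre on the expected strands, was 0.903 against a median of 0.668. At 35 peaks (1.29%) this ratio was 0.8 or more, among them Gphn at 0.958 and Zc3h7a at 0.908, which had folds of 4.72 and 4.14. Others with a high ratio had higher folds, 67.2 at the peak shared by Sp110 and Sp140 (ratio 0.869) and 11.3 at Coro2a (0.866).

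Several genes held many peaks of moderate height. Foxp1, a forkhead transcription factor, held 13 of its 36 cDC1 peaks as strong cDC1-only peaks, over 552.9 kb of its 597.4 kb. Their signal was even, from 26.8 to 38.1 normalised tags with a median of 31, and folds went from 7.52 to 22.1. Etv6, an ETS-family repressor, held 10, from 27.1 to 102.3 normalised tags with a median of 39.5. Of the 10, 8 lay between 154.3 and 226.5 kb from the 5' end, and 3 had the lowest knockout value. The highest, 184.8 kb from the 5' end, had 10 knockout tags and a fold of 12.5 (6.69 to 26.2).

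Ptprj, the receptor tyrosine phosphatase CD148, held 8 peaks from 28.1 to 53.1 normalised tags and no cDC2 peak. The nearest cDC2 centre to its highest peak was 499.95 kb away. Its peaks lay from 6.30 to 102.5 kb from the 5' end of a gene of 150.9 kb. Acoxl held 7, of which the highest, 170.2 kb from the 5' end, stood far above the others. Arhgap26 held 8 peaks between 27.3 and 47.6 normalised tags, and Snx29, a sorting nexin, held 7 between 25.7 and 70.2. Dock5, an activator of Rac, held 6 within 48.1 kb, the highest with 117.3 normalised tags and a fold of 40.6 (13.8 to 132). Unlike Ptprj, these genes with many peaks also held cDC2 peaks: 3 in Foxp1, 2 in Etv6, 4 in Arhgap26 and 1 each in Acoxl, Snx29 and Dock5.

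**Figure D4:**
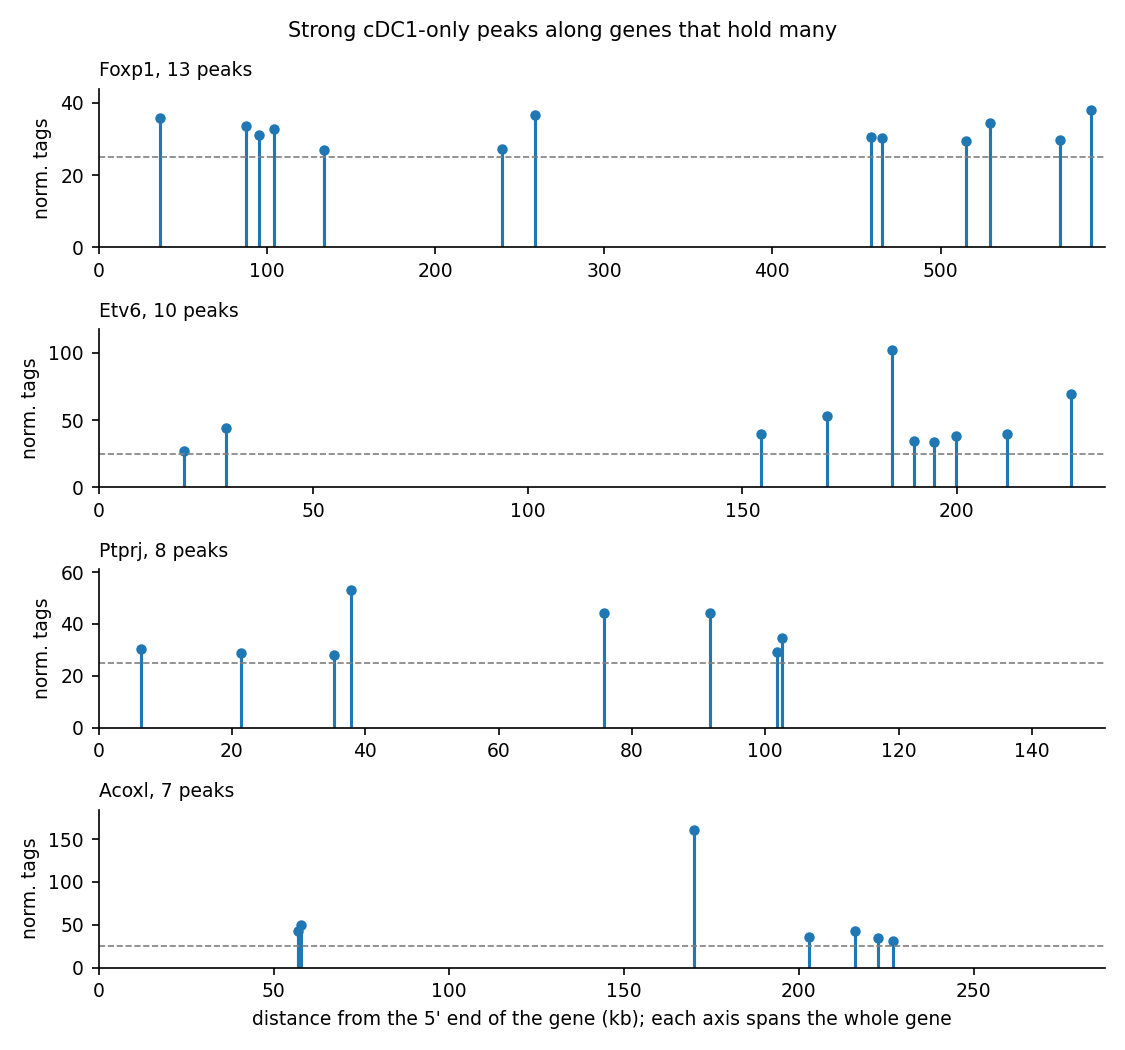
Strong cDC1-only peaks along Foxp1, Etv6, Ptprj and Acoxl, by distance from the 5' end of the gene in kb, with stem height as normalised wild-type tags and a dashed line at the minimum of 25. Foxp1 has 13 peaks of even height up to 38.1, while Etv6 and Acoxl each have 1 peak that exceeds the others, at 102.3 and 160.4.

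Some of the genes with many peaks contain other genes. Tg, which encodes the thyroid hormone precursor thyroglobulin, held 8 peaks from 28.3 to 50.5 normalised tags, and 4 of them lay inside Sla, a gene for a Src-like adaptor of leukocytes nested within Tg. Med12l, a Mediator-related gene, held 7, of which 4 lay inside P2ry14 and 2 inside P2ry12, both nested purinergic receptor genes. Ubac2, an endoplasmic reticulum membrane protein, held 7 peaks, 1 of them within 10 kb of Gpr183 and 1 within 10 kb of Gpr18, nested genes for receptors of leukocytes. Tg also held 2 cDC2 peaks and Med12l 3, while Ubac2 held none. Rb1 had 1 peak 3.23 kb from the nested receptor gene Lpar6. A nested protein-coding gene was found in 74 of the 1848 genes (4.004%, exact 95% interval 3.16% to 5.001%), against 1.93% (1.74% to 2.12%) of other genes. Among genes of 50 to 100 kb the share was 2.41% (1.16% to 4.39%) with such a peak and 4.33% (3.50% to 5.29%) without. Among genes of 100 to 200 kb the share was 5.34% (3.24% to 8.21%) with such a peak and 7.66% (6.15% to 9.41%) without, and at 200 to 500 kb 11.4% (7.39% to 16.7%) and 7.83% (5.75% to 10.4%). In each of these length classes the intervals overlapped, and the direction was not the same in all of them.

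Genes of dendritic cells and of signalling were described by 14 lists of 14 to 32 genes. A list's count is read against the 8.44% of all protein-coding genes and against all genes between 0.5 and 2 times the list's median length, since length moves with the share. That range follows the list's median only, so genes of a list that lie outside it are not matched in length. No test was made on a list. Where a list is near both of these shares, its count is no result about the list.

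Among core dendritic cell genes and transcription factors, 12 of 30 (40%, exact 95% interval 22.7% to 59.4%) held a strong cDC1-only peak, against 9.09% of genes of like length. The list's median length was 28.6 kb. Most of the 12 were longer than the genes of like length, as Etv6 (234.5 kb) and Runx1 (224.6 kb). Only Stat3, Bcl6, Itgax (21.1 kb) and Batf were within their range. Of all genes of 200 to 500 kb, 26.3% held such a peak, and the part of length in the list's share was not tested. After Etv6, the highest was in Stat3, a transcription factor activated by cytokine receptors, with 83.2 normalised tags and a fold of 7.51 (4.24 to 13.4). Rbpj, the nuclear effector of Notch, had 78.4 normalised tags and a fold of 11.2 (5.50 to 23.4). Bcl6, a repressor needed by cDC1, had 2 peaks, the higher with 60.3 normalised tags and a fold of 14.6 (6.19 to 45.7). Flt3, the receptor that drives dendritic cell development, had 3 peaks of up to 50.9.

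Zfp366 itself held 2 such peaks, 2.38 kb apart. The higher, at chr13:99213455-99213645, had 30 normalised tags, 2.5 knockout tags and a fold of 14.6 (4.04 to 59.7), and the lower had 29.9 normalised tags with the lowest knockout value, where the lower limit of the fold was 9.68 if that value stands for no tag. They lay 5.99 and 3.61 kb from a cDC2 peak, which was also inside Zfp366. The deleted part of this gene is not given, so lost binding and missing DNA in the knockout cannot be told apart at these peaks. Irf8, the factor that specifies cDC1, held no cDC1 peak centre in its gene body. Batf3, its partner in cDC1, held 1 cDC1 peak in its gene body but none that met the 3 conditions. Both are short genes, of 20.3 and 10.5 kb.

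Of the cDC1 markers, 15 of 30 (50%, 31.3% to 68.7%) held such a peak, against 7.95% of genes of like length. Here too some were longer than the genes of like length, as Cadm1 (332.1 kb) and Wdfy4 (234.3 kb). Others, as Jaml (29.4 kb) and Btla (29.2 kb), were within their range. Cd36, a scavenger receptor for dying cells and lipids, had the highest, with 107.4 normalised tags and a fold of 12.4 (6.56 to 24.0). Wdfy4, which is needed for cross-presentation by cDC1, had 5 peaks of up to 84.4 normalised tags and no cDC2 peak. Hepacam2 also had 5, and its highest, 80.8 normalised tags against 1 knockout tag, had a fold of 97.9 with a lower limit of 17.5. Itgae, the integrin subunit CD103, had 1 peak of 71.2 normalised tags and a fold of 14.4 (6.55 to 39.8). A cDC2 peak lay inside Cd36 and Cadm1, and none inside Hepacam2 or Itgae. Cadm1, an adhesion molecule, Btla, an inhibitory receptor, Ly75, the endocytic receptor DEC-205, and Dpp4, the protease CD26, also held such peaks, from 33.7 normalised tags at Dpp4 to 65.3 at Cadm1.

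Of 25 markers of cDC2, 3 held such a peak (12.0%, 2.55% to 31.2%), a share near that of all genes (8.44%) and of genes of like length (7.83%). A cDC2 peak lay in 6 of the 25 and in 5 of the 30 cDC1 markers, against 5.33% of all genes. The 3 were Prdm1, a transcriptional repressor, with 34 normalised tags, Il1r2, a decoy receptor, with 32, and Csf1r, a growth factor receptor, with 31.2. The interval of the cDC2 markers ended at 31.2% and that of the cDC1 markers began at 31.3%, and the difference was not tested.

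Of the kinase, phosphatase and phosphoinositide genes, 19 of 32 (59.4%, 40.6% to 76.3%) held such a peak, against 15.7% at like length. Inpp5d, the inositol phosphatase SHIP1, had 5 peaks of up to 95.9 normalised tags (fold 15.7, 7.31 to 34.0). Pik3ap1, a phosphoinositide 3-kinase adaptor, had 6 of up to 83, Lyn, a Src-family kinase, 5 of up to 65.6, and Mapk14, the kinase p38 alpha, 4 of up to 61.2. The highest Lyn peak had 2 knockout tags and a fold of 39.8 (10.9 to 332). These genes have a median length of 66.0 kb, and 29 of the 32 held a cDC1 peak of some height.

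Corepressors and chromatin regulators had such peaks in 13 of 31 genes (41.9%, 24.5% to 60.9%), against 17.4% at like length. Some were longer than the genes of like length, as Zeb1 (184.1 kb), and Kdm6b (21.9 kb) was shorter, while Tet2 and Kdm2b were within their range. The part of length in this share was not tested. Kdm6b, a demethylase of the H3K27 mark, had 3 peaks, the highest with 80.6 normalised tags but 19 knockout tags and a fold of 5.15 (3.25 to 8.70). Tet2, a methylcytosine dioxygenase, had 67.4 normalised tags (fold 7.91, 4.09 to 15.1). Zeb1, a zinc finger repressor, had 50.7 and Kdm2b, a demethylase that recruits a Polycomb complex, 49.1. At the highest peak of each gene the fold was below the median of 11.8 for Kdm6b, Tet2 and Kdm2b and was 17.9 (5.92 to 57.2) for Zeb1. The order was not the same at lower peaks, with a fold of 16.0 at the second peak of Kdm2b and 10.9 at that of Zeb1.

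Of antigen processing and presentation genes, 8 of 30 (26.7%, 12.3% to 45.9%) held such a peak, against 4.51% at like length. The list's median length was 9.74 kb. Most of the 8 were longer than the genes of like length, as Marchf1 (854.8 kb) and Lnpep (96.8 kb), while H2-DMa (19.4 kb) was within their range. Of all genes of 50 to 100 kb, 16.5% held such a peak, and the part of length in the list's share was not tested. Rab43, a GTPase of cross-presentation, had 79.6 normalised tags (fold 12.1, 6.05 to 28.3), and H2-DMa, a chaperone of MHC class II loading, 58.9 (fold 8.46, 4.12 to 17.7). Marchf1, a ubiquitin ligase that lowers MHC class II, had 41.3, and Lnpep, an aminopeptidase of endosomes, 35.7. Ciita and Nlrc5, the transactivators of MHC class II and class I genes, had 26.6 and 25.4, both near the minimum.

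Of interferon and pattern recognition genes, 7 of 32 (21.9%, 9.28% to 39.97%) held such a peak, against 6.90% at like length. Irak2, a kinase of Toll-like receptor signalling, had 4 peaks of up to 63.4 normalised tags (fold 25.6, 8.69 to 126). Irf7, the interferon regulator, had 58.9 with 12.5 knockout tags and a fold of 5.71 (3.15 to 10.5), while Ifngr2, a chain of the interferon gamma receptor, had 56 and a fold of 12.4 (5.13 to 31.4). Tlr6 had 2 peaks of up to 54.3. Of cytokine, chemokine and costimulation genes, 6 of 32 (18.8%, 7.21% to 36.4%) held one, against 4.81% at like length. This interval held the 8.44% of all protein-coding genes. Cd86 (97.2 kb) and Havcr2 (26.3 kb) were longer than the genes of like length, while Cd83 and Tgfb1 were within their range. In the interferon list Irak2 (56.6 kb) was longer than that list's range and Irf7 (3.32 kb) shorter. The part of length in these shares was not tested. Cd83, a marker of mature dendritic cells, had 80.6 normalised tags (fold 8.43, 4.61 to 16.0), Cd86, a costimulatory ligand, 3 peaks of up to 52.9, Havcr2, the receptor TIM-3, 46.1, and Tgfb1 45.7.

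Lists of other cell types had few such genes. They were 2 of 17 plasmacytoid dendritic cell markers (11.8%, against 5.21% at like length), 1 of 17 B cell markers (5.88%, against 8.74%) and 2 of 24 markers of T and NK cells (8.33%, against 8.18%). The B cell marker was Bcl11a, which also counts among the core dendritic cell genes. Such a peak was also held by 2 of 24 monocyte, macrophage and neutrophil markers (8.33%, against 3.01%) and 1 of 14 erythroid markers (7.14%, against 6.65%). The exact 95% interval of each of these 5 lists held both its like-length share and the 8.44% of all genes. The peaks were mostly low, as at Cd3e, a T cell receptor chain, with 29.5 normalised tags, and Klf1, an erythroid factor, with 25.2, but Ccr9, a chemokine receptor, had 53.4 and a fold of 64.8 with a lower limit of 11.5. Of 30 long genes of neurons and other non-immune cells, with a median length of 1339 kb, 4 held such a peak (13.3%, 3.76% to 30.7%), against 16.5% at like length. The highest of these was in Dlg2, a synaptic scaffold, with 51.6 normalised tags. CUT&Tag signal does not measure RNA, so these lists do not test which cells were in the sorted samples.

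**Figure D5:**
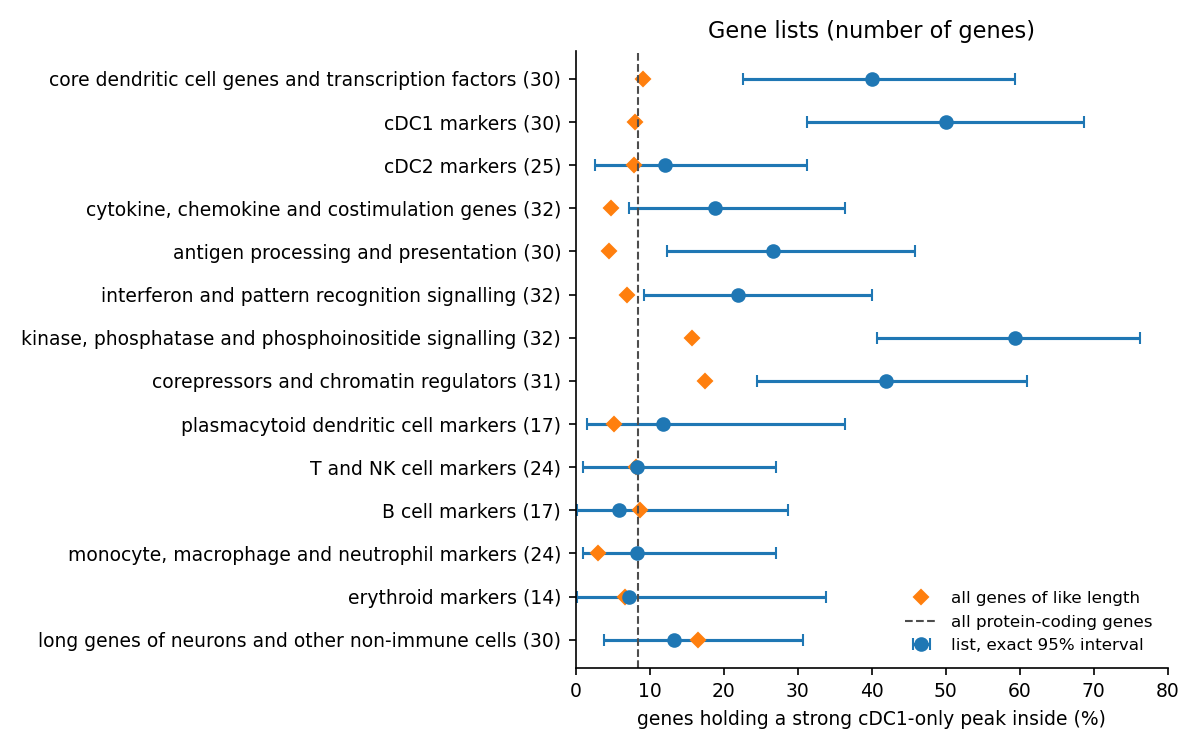
Share of genes of each list that hold a strong cDC1-only peak inside (points, with exact 95% intervals), the share for all genes of like length (diamonds) and for all protein-coding genes (dashed line, 8.44%). Kinase, phosphatase and phosphoinositide genes stand at 59.4%, cDC1 markers at 50%, and markers of plasmacytoid, T and NK, B, myeloid and erythroid cells between 5.88% and 11.8%.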

How the data were processed

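DC-SCRIPT CUT&Tag was analysed from 2 deposited peak lists, 1 for cDC1 and 1 for cDC2. Per the file headers, the authors called peaks of 191 bp with HOMER findPeaks on wild-type tags against knockout tags, at a false discovery rate of 0.001, with a fold (ratio) of at least 4 and a Poisson p-value of at most 0.0001 over knockout and over the surrounding 10000 bp. Builds GRCm38 and mm10 and HOMER are named in the submitters' processing notes. The sources used here do not give the aligner or which libraries entered each tag set. The deposited signal is wild-type tags per 10000000, the deposited focus ratio is a fraction per the file headers, and the deposited score is HOMER's and was not compared.

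Knockout depth (12.2 M tags) was worked out from the scaling between the deposited columns. Exact (Clopper-Pearson) 95% intervals of shares and of the tag ratio were computed from whole tags; they cover counting error only, as repeated tags may not be independent molecules. At a knockout value of 0.5, the lowest listed, only the lower limit is given, computed for 0 tags; whether that value stands for no tag is not stated in the file headers.

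Peaks were placed in 21900 protein-coding genes of a RefSeq table of GRCm38.p6, which gives no exons, so exon and intron are not named. "Any gene end" was read as an end of any protein-coding gene. Strand, starts and sequences came from RefSeq start windows of that build. The 368 entries of 14 lists all matched, 2 by a synonym; 1 further list is not reported here. The members and lists were chosen with earlier results of these data known. Named genes were the 15 with the highest peaks, the 10 with the most peaks (the tenth, Dock5, taken by summed tags from 12 genes with 6 peaks each), up to 4 per list by height, 3 to each side of the 25-tag limit, and Zfp366, Irf8 and Batf3; nested genes, further list genes, genes of start sequences and genes of extreme values were named after their values were seen. No test between genotypes was possible, since the lists hold no values per library. The interval code was tested on simulated data. Alternatives to each condition were tried. Analyses used Python 3.11.15, pandas 2.3.3, numpy 2.4.6 and scipy 1.17.1.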

Additional observations from a re-analysis of the deposited data

How the results depend on the processing

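No paired analysis was possible because the lists hold pooled tags with no value per library, so no library could be left out either. Of 209 recomputed values, 151 kept their level, which means within 1.5 times for counts and within the 95% interval of the main value for medians and shares; this still spans 1840 to 3982 peaks and 1306 to 2486 genes. With a minimum of 20 tags the median fold was 11.2, with 30 it was 12.3 and with 50 it was 13.4; the knockout median, scaled to 10000000 tags, was 3.70 and 4.93 at 30 and 50. At 50 tags there were 490 peaks in 421 genes, and the lists held 0 B cell, 0 T and NK, 0 cDC2, 0 erythroid and 0 monocyte genes, 8 kinase, 8 cDC1, 7 core dendritic cell, 3 chromatin, 2 antigen, 2 cytokine, 1 neuronal and 1 plasmacytoid. At 20 tags there were 6 cDC2, 4 plasmacytoid, 2 B cell and 2 erythroid genes, and at 30 tags 5 antigen, 2 neuronal, 1 T and NK, 1 monocyte and 0 erythroid. With no minimum distance to a gene end there were 2777 genes, a median fold of 10.4, a scaled knockout median of 3.70, 77.6% of peaks without a cDC2 peak in the gene, and 11 interferon, 10 cytokine, 5 cDC2, 4 plasmacytoid and 2 erythroid genes. With 5 kb the fold was 12.6, the share 66.9%, and there were 4 antigen and 4 interferon genes, 1 each of cDC2, T and NK, monocyte and plasmacytoid genes and 0 erythroid. With a fold of at least 8, which selects on fold, the median fold was 15.2 and the scaled knockout median 2.47, the share 70.0%, and there were 8 chromatin, 1 plasmacytoid and 0 erythroid genes. With no cDC2 centre within 10 kb, which removes peaks near cDC2 peaks, the share was 79.1%, with 1 T and NK and 1 monocyte gene; with overlap as the criterion it was 69.0%, with 2 B cell genes. Merging within 5 kb gave 2465 regions. Of 17 motif shares, 5 left their interval at 50 tags, where 26 windows remained, among them flanked ETS (26.9% against 37.4%) and NF-kB (15.4% against 8.84%). The motif search in 200 bp to each side of all peaks was not run, since no genome was used here.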

Other observations

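A few of the peaks lay beside microRNA genes inside their host. In Erp44, a chaperone of the early secretory pathway, the centre of a peak of 31.9 normalised tags (fold 15.5, exact 95% interval 4.31 to 63.6) was 62 bp from the hairpin of Mir1958, and a second peak of 44.8 was 748 bp from it. In Srebf2, the sterol-responsive transcription factor, a peak of 36.5 normalised tags (fold 8.08, 3.30 to 20.5) was 1535 bp from Mir33, which lies in that gene. In Clcn4, a chloride transporter, a peak of 56 normalised tags was 239 bp from Mir5620. There were 9 pairs of a peak and a hairpin within 2 kb, among 2710 peaks. No share was computed for other peaks or for gene bases, so this count is no result about microRNA genes.

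The extremes of knockout signal lay in different genes. Nfkb2, an NF-kB subunit, had 71.9 normalised tags with 21.5 knockout tags and a fold of 4.05 (2.57 to 6.46), and Piezo1, a mechanosensitive channel, had 82.5 with 20.5 (fold 4.89, 3.07 to 7.85). Cdk8, a kinase of the Mediator complex, had 101.9 with 23.5 knockout tags (fold 5.27, 3.41 to 8.16) and a focus ratio of 0.829. Its fold over the surrounding 10000 bp was 116.8, the highest of all 2710 peaks, against a median of 8.63. At the other end, Tbxas1, thromboxane synthase, had 83.5 normalised tags and the lowest knockout value, and Hmga2, a chromatin architectural protein, had 66.4 and the same knockout value. The lower limits of their folds were 27.3 and 21.8 if that value stands for no tag. Neighbouring peaks in the same gene had a median distance of 11.6 kb over 903 pairs, and 246 pairs (27.2%) were within 5 kb.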
